A study of Mus musculus with 4 samples.

Results

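The genes described here encode splicing factors and heterogeneous nuclear ribonucleoproteins (hnRNPs). They were chosen by name, as every gene of the deposited table whose symbol begins with Srsf, Hnrnp, Sf3a, Sf3b or Snrp. This gave 52 of the table's 25724 genes. They were 11 SR proteins, 20 hnRNP proteins, 9 subunits of SF3A and SF3B, 8 Sm proteins and 4 proteins of the U1 and U2 particles. All 52 matched a gene of GENCODE vM21.

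The cells came from male mice of the B6 strain, 6 weeks of age. They were T cells of the lamina propria of the colon, sorted for CD45, TCRb and CD4 and profiled by inDrops, a droplet method that tags the 3′ ends of polyadenylated RNA with oligo dT primers. The labels give 4 samples in 1 group, titled Btheta_colon, with no genotype, treatment or control group besides. The table's barcodes name no sample, so all cells were handled as 1 pooled sample with no replicates. Every interval given here covers counting error only, no difference was tested between samples, and how far the 4 samples differ is not known.

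Splicing removes introns from pre-mRNA in a series of steps carried out by the spliceosome. The U1 particle reads the start of the intron and the U2 particle, with its subcomplexes SF3A and SF3B, the branch site. Each of these particles is built on a small nuclear RNA carried in a ring of Sm proteins. SR proteins bind exons and, in general, favour their inclusion, while hnRNPs coat nascent RNA, often favour skipping and also act in RNA transport and decay. In T cells the best known switch of this kind is the shortening of Ptprc (CD45) mRNA on activation, which Hnrnpll and Hnrnpl promote.

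Of 1985 barcodes, 1050 had at least 500 counts, at least 200 detected genes and under 20% mitochondrial counts, and these are called cells below. A cell held a median of 1235.5 counts, from 501 to 13023, and the cells together held 1549040. A gene with 0 counts could therefore stand at up to 1.94 CPM (counts per 1000000). T cell markers were detected in 95.8% to 98.0% of the cells on either side of every gate used below. Erythroid globins and the NK receptor gene Ncr1 stood at 0. The other 4 genes listed for CD8, gamma delta, innate lymphoid or NK cells were detected. With and without a Foxp3 count they summed to 50.5 and 20.3 CPM, and with and without an Nr4a1 count to 49.2 and 21.7 CPM. By Gata3 they stood at 23.8 and 39.0 CPM, and by the naive genes at 35.3 and 29.1 CPM. B or plasma cell genes summed to 13.6 and 26.1 CPM with and without a Foxp3 count.

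The 52 genes took 19343 counts, 1.25% of all counts, or 12487 CPM (95% Poisson interval 12312 to 12664). Every one of the 1050 cells held at least 1 of these counts. The share of a cell's counts that fell on the 52 genes ran from 0.118% to 5.22%, with a median of 1.17% and quartiles of 0.881% and 1.48%. A cell held a median of 15 such counts on 9 of the genes, so that no single cell showed the full set. Thinned to 500 counts per cell, 1041 cells still held at least 1 count, and the median cell held 6 on 5 genes.

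The levels were spread widely. The 10 highest genes took 48.9% of the counts, and 50 of the 52 genes had at least 50 counts. The 2 genes below that were Srsf12, with 1 count, and Snrpn, an imprinted Sm protein gene known from neurons, with 0. Both have no ratio in what follows. These levels order the counts of 3′ ends and are not scaled per length.

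**Figure D1:**
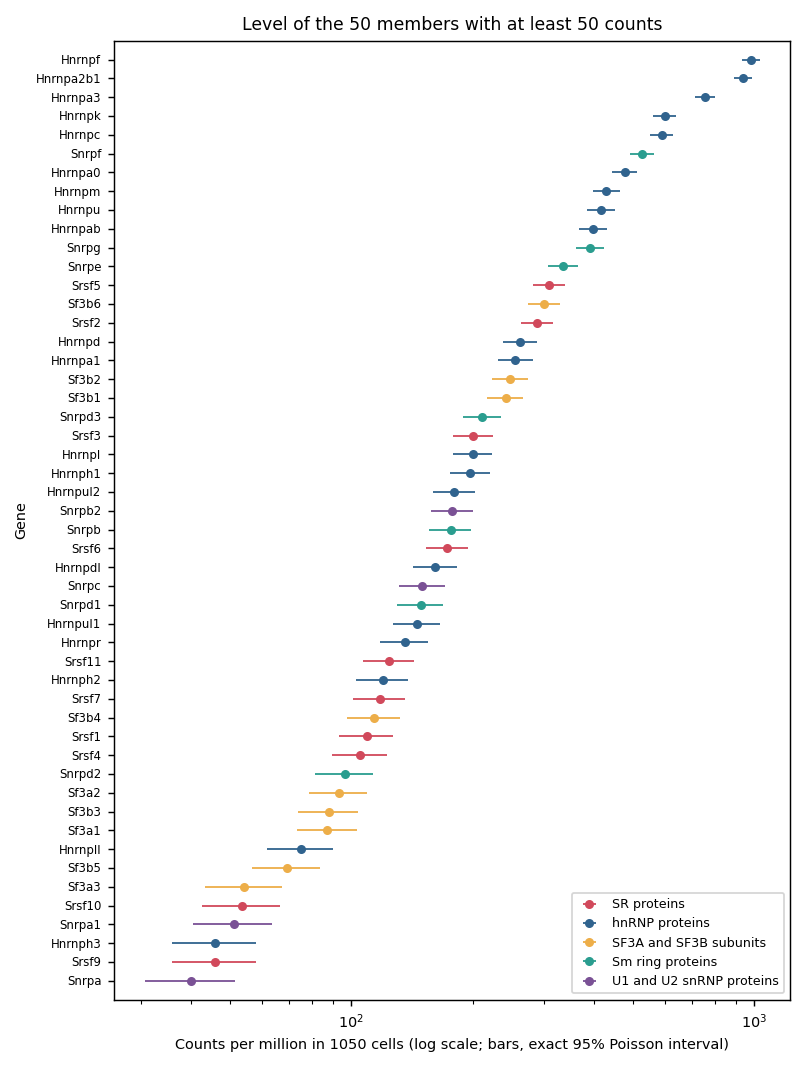
Level of each of the 50 genes with at least 50 counts in 1050 cells, in CPM on a log axis, with exact 95% Poisson intervals and points coloured by family. Levels run from 980 CPM for Hnrnpf down to 40.0 CPM for Snrpa, and 9 of the 10 highest points are hnRNP genes.

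The hnRNP genes held most of the signal. Their 20 genes summed to 7359 CPM (7225 to 7496), which was 58.9% of the counts of all 52, and 98.6% of cells had at least 1. Hnrnpf, whose protein binds runs of G, was the highest of the 52 at 980 CPM (931 to 1031) and was detected in 57.7% of cells. It ranked 150 among all genes of the table. Hnrnpa2b1, a reader of exon and transport signals, stood at 939 CPM (891 to 988) and its relative Hnrnpa3 at 755 CPM (712 to 799). The intervals of Hnrnpf and Hnrnpa2b1 overlapped, and that of Hnrnpa3 lay below both. Next came Hnrnpk, which binds C-rich RNA, at 599 CPM, and Hnrnpc, which binds runs of U, at 589 CPM. Their intervals overlapped too. Hnrnpa0 stood at 476 CPM, Hnrnpm at 429 CPM, the chromatin-associated Hnrnpu at 416 CPM and Hnrnpab at 398 CPM. Hnrnpa1, the archetype of the family, stood lower at 255 CPM, close to Hnrnpd, a regulator of mRNA decay, at 263 CPM. Hnrnpl, Hnrnph1, Hnrnpul2, Hnrnpdl, Hnrnpul1, Hnrnpr and Hnrnph2 lay between 200.1 and 119 CPM. The 2 lowest were Hnrnpll at 74.9 CPM (61.9 to 89.8), found in 77 of 1050 cells, and Hnrnph3 at 45.8 CPM (35.8 to 57.8), found in 42.

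The Sm ring came second with 1886 CPM (1819 to 1956), or 15.1% of the counts, and was seen in 82.4% of cells. Its members assemble in equal numbers in the protein ring, yet their 3′ counts differed severalfold. Snrpf stood at 527 CPM (492 to 565), Snrpg at 391 CPM and Snrpe at 336 CPM. Snrpd3 followed at 211 CPM, Snrpb at 176 CPM, Snrpd1 at 149 CPM and Snrpd2 at 96.2 CPM (81.4 to 113). The E, F and G genes were thus all above the B and D genes in these counts.

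The SR genes summed to 1529 CPM (1468 to 1592), 12.2% of the counts, and 71.0% of cells held at least 1. Srsf5 led with 310 CPM (283 to 339), with Srsf2, which stays in the nucleus, at 289 CPM (263 to 317) inside the same interval. Srsf3, an adaptor of mRNA export, stood at 201 CPM and Srsf6 at 173 CPM. Srsf11, Srsf7, Srsf1 and Srsf4 lay between 124 and 105 CPM. Srsf10, a repressor when dephosphorylated, stood at 53.6 CPM and Srsf9 at 45.8 CPM.

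The subunits of SF3A and SF3B summed to 1294 CPM (1238 to 1352), 10.4% of the counts. Sf3b6, the subunit that touches the branch-site adenosine, was highest at 300.2 CPM (273 to 329). Sf3b2 at 248 CPM and Sf3b1, the scaffold that clamps the branch helix, at 241 CPM did not differ beyond their intervals. Sf3b4 stood at 114 CPM, and Sf3a2, Sf3b3, Sf3a1, Sf3b5 and Sf3a3 lay between 92.96 and 54.2 CPM. The proteins of U1 and U2 summed to 418 CPM (387 to 452), 3.35% of the counts, and were seen in 32.5% of cells. Snrpb2 (U2-B″) stood at 178 CPM and Snrpc (U1-C) at 150 CPM. Snrpa1 (U2-A′) stood at 51.0 CPM and Snrpa (U1-A) at 40.0 CPM.

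Counts of these genes were clumped by cell. All 50 genes with at least 50 counts were found in fewer cells than independent counts would reach, at a median of 0.755 times the expected number and from 0.589 to 0.927. The same held for 4785 of all 4790 genes with at least 50 counts, with a median of 0.749. No more than 7.04% of a gene's counts came from 1 cell, the highest such share being that of Hnrnph3. The Poisson and ratio intervals given here are for this reason too narrow. Per-cell sums of the families, thinned to equal depth, had correlations between -0.02 and 0.05 over the 1050 cells, which in counts this sparse is no finding.

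**Figure D2:**
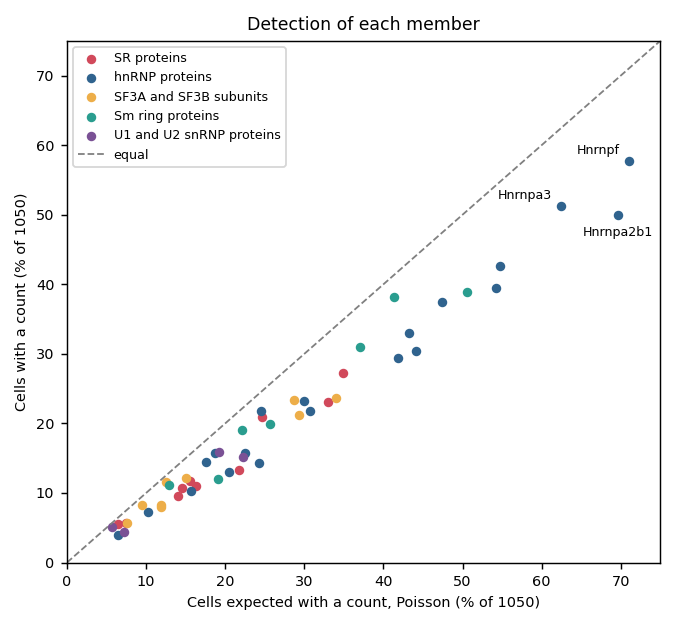
Percent of 1050 cells with at least 1 count of each gene against the percent expected if its counts fell on cells by depth alone (Poisson). All 50 genes with at least 50 counts lie below the line of equality; Hnrnpf, the most often detected, was found in 57.7% of cells.

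Cells were then divided by transcripts of 4 kinds. The gates were at least 1 count of Foxp3, which defines regulatory T cells, of Gata3, a factor of type 2 and tissue regulatory T cells, of Nr4a1, a gene induced by the T cell receptor, or of any of the naive genes Ccr7, Tcf7 and Lef1. Foxp3 gave 332 positive cells, Gata3 572, Nr4a1 296 and the naive genes 198. A negative cell is one in which no count was caught, which at this depth is not absence. Positive cells were deeper, with median counts of 1304.5 against 1215 for Foxp3, 1336 against 1161 for Gata3, 1444.5 against 1192.5 for Nr4a1 and 1371 against 1213.5 for the naive genes. The 4 gates share cells: 201 of the Foxp3+ cells were also Gata3+, 123 were Nr4a1+ and 36 were naive-gene+. Ratios below are log2 of positive over negative CPM with a 95% conditional interval. A 1.5-fold difference is 0.58 on this scale.

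The total over the 52 genes was nearly level in every gate. It stood at 12693 CPM in Foxp3+ and 12385 CPM in Foxp3- cells, a log2 ratio of 0.04 (-0.01 to 0.08). In the Gata3 gate it stood at 12658 against 12261 CPM, a ratio of 0.05 (0.00 to 0.09). Nr4a1+ cells had 12241 and Nr4a1- cells 12600 CPM, a ratio of -0.04 (-0.09 to 0.00). The naive-gene+ cells had the highest level, 13023 (12625 to 13430) against 12352 (12157 to 12550) CPM, a ratio of 0.08 (0.03 to 0.13). The per-cell share overlapped almost completely on both sides of each gate. In naive-gene+ cells it ran from 0.337% to 2.69% with a median of 1.198%, and in the others from 0.118% to 5.22% with a median of 1.15%. The ratio of the total turned sign under at least 1 other way of processing in the Foxp3, Gata3 and naive-gene gates.

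The 4 genes at the ends of the ranking by gate, where the end was past 1.5-fold, were Sf3a2 (lowest in the Foxp3 gate and highest in the naive-gene gate), Snrpa1 (highest in the Foxp3 gate), Hnrnph3 (lowest in the Gata3 and Nr4a1 gates) and Hnrnph2 (lowest in the naive-gene gate). Their promoter windows, 250 bases before to 50 after a RefSeq transcription start in GRCm38.p6 (mm10), are printed because these genes stood at the ends of the ranking. Capitals mark matches, on either strand, to the motifs counted here: the ETS letters (CCGGAAG), the GC box (GGGCGG), the forkhead letters (TGTTTAC), those of GATA factors (AGATAAG), those of NR4A receptors (AAAGGTCA), those of TCF/LEF factors (CTTTGAT), those of YY1 and the CCAAT box.
Sf3a2 promoter, chr10:80798485-80798784, plus strand: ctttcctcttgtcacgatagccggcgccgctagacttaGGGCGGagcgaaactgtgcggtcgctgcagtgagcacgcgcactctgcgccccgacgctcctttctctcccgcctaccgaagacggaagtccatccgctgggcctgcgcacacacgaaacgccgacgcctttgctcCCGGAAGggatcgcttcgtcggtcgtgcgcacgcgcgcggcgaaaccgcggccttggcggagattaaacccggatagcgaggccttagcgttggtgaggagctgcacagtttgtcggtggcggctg
Snrpa1 promoter, chr7:66060086-66060385, plus strand: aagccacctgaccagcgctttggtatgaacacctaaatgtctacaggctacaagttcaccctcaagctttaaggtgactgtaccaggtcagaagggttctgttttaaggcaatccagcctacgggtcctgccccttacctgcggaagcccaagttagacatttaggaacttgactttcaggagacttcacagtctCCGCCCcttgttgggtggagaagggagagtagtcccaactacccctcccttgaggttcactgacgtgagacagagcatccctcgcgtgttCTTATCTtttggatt
Hnrnph3 promoter, chr10:63023800-63024099, minus strand: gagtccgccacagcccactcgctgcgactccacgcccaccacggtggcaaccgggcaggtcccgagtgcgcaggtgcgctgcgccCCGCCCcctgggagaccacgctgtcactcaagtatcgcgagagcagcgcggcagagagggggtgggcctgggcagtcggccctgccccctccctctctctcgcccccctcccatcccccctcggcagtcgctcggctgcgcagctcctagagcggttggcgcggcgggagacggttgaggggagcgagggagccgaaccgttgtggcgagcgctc
Hnrnph2 promoter, chrX:134600929-134601228, plus strand: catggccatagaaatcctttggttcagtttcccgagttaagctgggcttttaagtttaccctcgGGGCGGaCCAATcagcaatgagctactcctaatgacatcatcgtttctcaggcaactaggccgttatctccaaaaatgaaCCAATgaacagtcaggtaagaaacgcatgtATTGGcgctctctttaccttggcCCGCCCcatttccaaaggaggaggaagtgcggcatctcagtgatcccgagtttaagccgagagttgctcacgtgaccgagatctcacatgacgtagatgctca
Windows were found for 46 of the 52 genes, 63 windows in all, against 32851 windows of the whole table. The ETS letters stood in 33.3% of the members' windows and 8.86% of all, and the GC box in 68.3% and 35.7%. CCAAT stood in 44.4% and 37.4%. The letters tied to the gate factors were rare in both: forkhead in 3.17% and 3.65%, GATA in 1.59% and 3.04%, NR4A in 3.17% and 1.51%, TCF/LEF in 1.59% and 3.73%. YY1 letters stood in 1.59% and 0.852%. Of the 4 windows, that of Sf3a2 holds the ETS letters, that of Snrpa1 the GATA letters and that of Hnrnph2 3 CCAAT matches. A match is a run of letters and not a shown binding site.

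In the Foxp3 gate the SR sum stood lower and the hnRNP sum slightly higher in Foxp3+ cells. The SR sum was 1403 CPM in Foxp3+ and 1591 CPM in Foxp3- cells, a log2 ratio of -0.18 (-0.31 to -0.05). Of 10 SR genes, 6 were below 0 and 4 above, near the split over all genes given below. Srsf5, the SR gene of highest counts, was above 0 at 0.13. The hnRNP sum was 7669 against 7205 CPM, a ratio of 0.09 (0.03 to 0.15), with 14 of 20 genes above 0. Of the 50 genes with a ratio, 2 were higher by at least 1.5-fold, against 10.3% of all genes tested, and 3 were lower, against 11.0%. Their median was 0.03, and that of all genes 0.01. Of all 4789 genes tested, 2465 were above 0 and 2324 below. The members' counts were larger (median 274 against 111 for all genes tested), so a share below the background is not a sign of stability.

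Snrpa1, a U2 protein, was the highest at 73.8 CPM (38 counts in 20 cells) in Foxp3+ against 39.6 CPM (41 counts in 26 cells) in Foxp3- cells, a ratio of 0.90 (0.22 to 1.57). Hnrnph2 followed with 157 against 101 CPM, 0.65 (0.21 to 1.08). Hnrnpul1, a relative of hnRNP U, stood at 181 against 128 CPM, 0.50 (0.10 to 0.90), inside the 1.5-fold line. Sf3b1 had 0.33 (0.02 to 0.64), Srsf11 0.30 (-0.14 to 0.73) and Hnrnpa1 0.25 (-0.05 to 0.55). Snrpa1 is the most lightly counted of these, and its ratio was 0.21 with the gate at 2 counts and 1.74 at 500 counts per cell.

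Sf3a2, an SF3A subunit, was the lowest at 60.2 CPM (31 counts in 26 cells) against 109 CPM (113 counts in 96 cells), a ratio of -0.86 (-1.48 to -0.27). Srsf9 stood at 33.0 against 52.2 CPM, -0.66 (-1.54 to 0.15), and Snrpa at 29.1 against 45.4 CPM, -0.64 (-1.59 to 0.22). The intervals of both reach past 0. The SR genes Srsf7, Srsf6 and Srsf2 came next. Srsf7 stood just inside 1.5-fold at 89.4 against 131 CPM, -0.56 (-1.07 to -0.06). Srsf6 stood at 132 against 193 CPM, -0.55 (-0.97 to -0.15). Srsf2 stood at 227 against 320 CPM, -0.49 (-0.81 to -0.18), and at equal depth was caught in 8.13% of Foxp3+ and 12.7% of Foxp3- cells. Of the 6 lowest genes, 4 were SR genes, against 10 of the 50 ranked. These are the ends of 1 ranking, so this is no result about the family.

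Counts of other cell types' markers were not evenly spread over this gate. Epithelial markers summed to 50.5 CPM in Foxp3+ and 2422 CPM in Foxp3- cells, with 7 of 7 lower. They were detected in 3.01% and 4.87% of cells, a far smaller gap than that of the CPM. Stromal markers summed to 64.1 against 647 CPM. Myeloid markers summed to 167 against 405 CPM, but were detected in 9.64% of Foxp3+ and 4.04% of Foxp3- cells. Cycling genes summed to 968 against 1366 CPM, with 11 of 11 below 0. Without the 20 cells that held 2 or more epithelial or stromal genes, the SR ratio was -0.22. The part of the cycling cells was not tested.

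Among genes that work with the members, the kinase and partner genes of SR proteins had 1 of 24 higher and 2 lower by at least 1.5-fold, with a median of 0.12. Over all genes in this gate, 10.3% were higher and 11.0% lower. Pnn, an exon-junction protein, stood at 83.5 against 52.2 CPM, 0.68 (0.07 to 1.28), and the SR kinase Srpk1 at 85.5 against 139 CPM, -0.70 (-1.23 to -0.21). Of 42 other spliceosome genes, 1 (2.38%) was higher and 6 (14.3%) were lower, with a median of -0.05. Usp39, needed for tri-snRNP function, stood at 117 against 53.2 CPM, 1.13 (0.58 to 1.69). U2af1, the reader of the 3′ splice site, stood at 97.1 against 185 CPM, -0.93 (-1.41 to -0.47). Prpf39, a U1-associated factor, stood at 13.6 against 53.2 CPM, -1.97 (-3.35 to -0.83). Of 30 other RNA-binding regulators, 1 was higher, Syncrip at 0.71 (0.25 to 1.17), and 0 were lower.

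The Gata3 gate showed the reverse order for the SR genes, which stood higher in Gata3+ cells. Their sum was 1615 against 1415 CPM, a ratio of 0.19 (0.07 to 0.31), 8 of 10 genes were above 0 and their median was 0.31. Of the 50 genes, 0 were higher by at least 1.5-fold, against 10.1% of all genes, and 1 was lower, against 8.23%. The median over the 50 was -0.01 and over all genes 0.03. Of all 4789 genes tested, 2545 were above 0 and 2244 below. Of the SF3A and SF3B genes, 7 of 9 were below 0, with a median of -0.20, while their sum had a ratio of -0.06.

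Srsf11 was highest with 144 against 97.4 CPM, 0.56 (0.12 to 1.02), just inside the 1.5-fold line. Srsf6 had 199.6 against 137.9 CPM, 0.53 (0.16 to 0.91), and at equal depth was caught in 8.39% of Gata3+ and 5.02% of Gata3- cells. Sf3b2 stood at 279 against 207 CPM, 0.43 (0.13 to 0.74). Srsf4 had 0.42, Snrpa1 0.38 and Srsf10 0.34, so that 4 of the 6 highest were SR genes, against 10 of the 50 ranked. Of these, Srsf10 turned to -0.64 at 500 counts per cell and stood near 0 (0.01 and 0.02) with counts capped at 1 or cells weighted equally. Hnrnph3 was the 1 gene past 1.5-fold, with 36.3 CPM (32 counts) against 58.4 CPM (39 counts), -0.69 (-1.41 to 0.02). It was caught in 21 cells on each side. Sf3a1 had -0.55 (-1.06 to -0.04), Sf3a3 -0.54 (-1.19 to 0.11), Hnrnpll -0.50 (-1.05 to 0.05), Sf3b3 -0.32 and Snrpb2 -0.29.

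The epithelial markers stood at 19.3 against 3767 CPM in this gate, and were detected in 2.80% and 6.07% of cells. The cycling genes stood at 1364 against 1061 CPM. Without the cells holding epithelial or stromal genes the SR ratio was 0.16. Of the immediate early and stress genes, 4 of 16 were higher by at least 1.5-fold. The part of the cycling and stress genes was not tested. Of the SR partners and kinases, 2 of 24 were higher and 2 lower, where 10.1% of all genes were higher and 8.23% lower. Pnn stood at 76.0 against 45.0 CPM, 0.76 (0.12 to 1.43). Srpk2 stood at 45.4 against 92.9 CPM, -1.03 (-1.65 to -0.44), and Clk4, a kinase of SR proteins, at 35.2 against 68.9 CPM, -0.97 (-1.68 to -0.28). Of 42 other spliceosome genes, 3 were higher, among them Dhx38 at 0.85 (0.03 to 1.74), and 2 were lower, among them Prpf38a at -0.89 (-1.54 to -0.26). Of 30 other RNA-binding regulators 24 were above 0, against 2545 of all 4789 genes tested. Their median was 0.10, and 0 were past 1.5-fold in either direction.

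**Figure D3:**
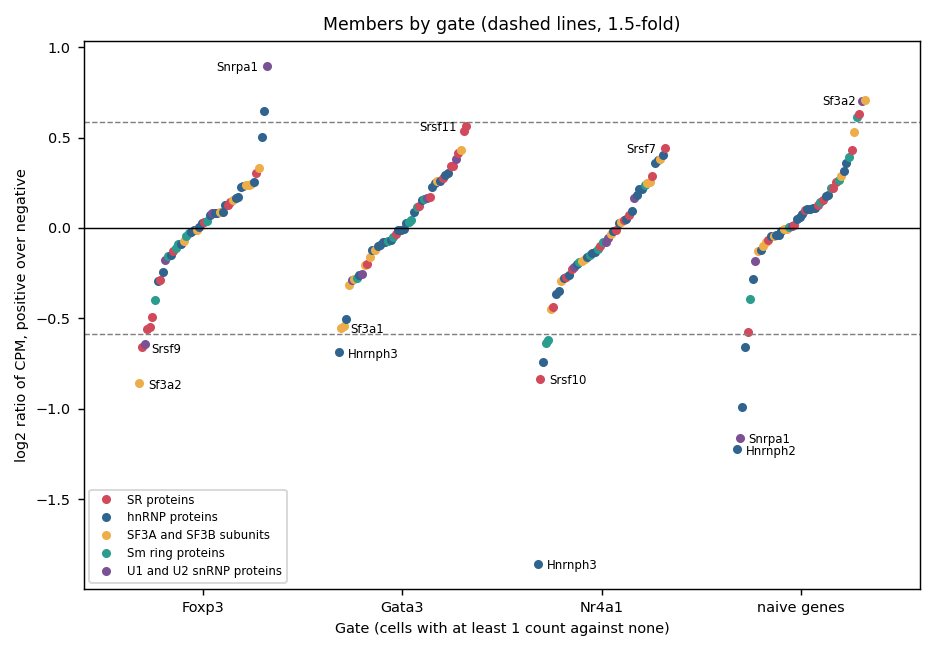
Log2 ratio of CPM, positive over negative cells, of the 50 genes with at least 50 counts in each of 4 gates, in rank order and coloured by family, with dashed lines at 1.5-fold. The low end reaches -1.86 for Hnrnph3 in the Nr4a1 gate, and no gene passes the upper line in the Gata3 and Nr4a1 gates.

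In the Nr4a1 gate the Sm genes stood lower in Nr4a1+ cells. The Sm sum stood at 1755 against 1947 CPM, a ratio of -0.15 (-0.27 to -0.03), with 6 of 7 genes below 0. T cell markers summed to 5138 against 5782 CPM, a ratio of -0.17 (-0.24 to -0.10), also with 6 of 7 below 0. A shift of this size was thus not particular to the Sm genes. Of the 50 genes, 0 were higher by at least 1.5-fold, against 8.04% of all genes. Lower were 5, or 10%, close to the 9.25% of all genes. Of the 5, 2 were Sm genes, which were 7 of the 50 ranked. With counts capped at 1 per cell and gene the number lower was 1. Thinned to 500 counts per cell, 8 were lower and 4 higher. The median over the 50 was -0.09 and over all genes 0.00. Of all 4789 genes tested, 2379 were above 0 and 2410 below. The SR sum was level, with a ratio of 0.01.

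Hnrnph3 had the largest difference of any member in any gate. It stood at 16.4 CPM (8 counts in 7 of 296 cells) in Nr4a1+ against 59.4 CPM (63 counts in 35 of 754 cells) in Nr4a1- cells, a ratio of -1.86 (-3.13 to -0.79). At equal depth it was caught in 0.338% and 2.12% of cells, the first near the level of 1 count. Srsf10 stood at 34.9 against 62.2 CPM, -0.84 (-1.70 to -0.05). Hnrnpll, the CD45 splicing factor, stood at 51.3 CPM (25 counts) against 85.7 CPM (91 counts), -0.74 (-1.44 to -0.09). Its share of cells at equal depth was 2.03% and 2.39%, a smaller gap than that of the CPM. The Sm genes Snrpd2 and Snrpd1 stood at 69.7 against 108 CPM, -0.64 (-1.23 to -0.07), and 109 against 167 CPM, -0.62 (-1.09 to -0.17). Sf3a1 was next with -0.45.

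Toward the other end, Srsf7 had 0.44 (-0.01 to 0.89) and Hnrnph2 0.41 (-0.04 to 0.85). Sf3b1 stood at 287 against 220.5 CPM, 0.38 (0.07 to 0.69), and was caught at equal depth in 12.5% of Nr4a1+ and 7.82% of Nr4a1- cells. Hnrnpd stood at 309.6 against 241 CPM, 0.36 (0.06 to 0.66). Hnrnpul1 had 0.37 and Srsf2 0.29. At 500 counts per cell Srsf7 stood at -0.07 and Hnrnpul1 at -0.10. Genes known to be induced by cell stimulation and by tissue digestion were higher in Nr4a1+ cells: 16 of 16 were above 0 and 10 were past 1.5-fold, with Egr1 at 303 against 92.3 CPM, 1.72 (1.34 to 2.10). Myeloid markers summed to 443 against 272 CPM, stromal markers to 141 against 596 CPM and epithelial markers to 1980 against 1475 CPM, although 6 of 7 epithelial genes were lower. Epithelial markers were detected in 4.39% and 4.24% of cells. The part of any of these in the members' ratios was not tested.

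Of 42 other spliceosome genes, 8 (19.0%) were lower and 2 (4.76%) higher in Nr4a1+ cells, with a median of -0.16. Of all genes, 9.25% were lower and 8.04% higher. Prpf18, a factor of the catalytic steps, stood at 16.4 against 57.5 CPM, -1.81 (-3.08 to -0.74), and U2surp at 43.1 against 85.7 CPM, -0.99 (-1.75 to -0.30). Of the SR partners and kinases, 0 of 24 were higher and 2 were lower, 1 of them Clk3 at -0.80 (-1.63 to -0.03). Among 30 RNA-binding regulators, Pspc1, a paraspeckle protein, was the 1 gene past 1.5-fold at 0.73 (-0.02 to 1.47). Neat1, the noncoding RNA that paraspeckles are built on, stood at 96.4 against 54.6 CPM, 0.82 (0.23 to 1.40).

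In the naive-gene gate the Sm genes stood higher in positive cells. Their sum was 2089 against 1835 CPM, a ratio of 0.19 (0.06 to 0.31), with 6 of 7 genes above 0. The sum of SF3A and SF3B was 1431 against 1260 CPM, a ratio of 0.18 (0.03 to 0.34), although 6 of its 9 genes were below 0, Sf3b6 and Sf3a2 carrying the sum. At 500 counts per cell this second ratio was -0.11. The SR sum had a ratio of 0.13 (-0.02 to 0.27). T cell markers were higher too, at 6003 against 5472 CPM, a ratio of 0.13 (0.06 to 0.21). Of the 50 genes, 4 were higher by at least 1.5-fold, against 7.94% of all genes, and 4 were lower, against 17.2%. The median over the 50 was 0.07 and over all genes -0.08. Of all 4787 genes tested, 2049 were above 0 and 2738 below.

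Sf3a2 was highest with 135 CPM (42 counts in 33 cells) against 82.4 CPM (102 counts in 89 cells), a ratio of 0.71 (0.15 to 1.24). With the gate at 2 counts its ratio was 0.17. Snrpa stood at 57.8 against 35.6 CPM, 0.70 (-0.18 to 1.52), and at equal depth was caught in 5.05% and 1.53% of cells. Srsf7 stood at 164 against 106 CPM, 0.63 (0.13 to 1.11). Snrpd1 stood at 205 against 134 CPM, 0.61 (0.17 to 1.04), but its ratio turned to -0.03 at 500 counts per cell. Sf3b6 had 398 against 276 CPM, 0.53 (0.22 to 0.83), and Srsf9 had 0.43, which turned to -0.01 at 500 counts per cell.

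Among the 6 lowest genes, Hnrnph2 stood at 57.8 CPM (18 counts in 13 cells) against 135 CPM (167 counts in 95 cells), a ratio of -1.22 (-2.01 to -0.52). Hnrnph3 stood at 25.7 against 50.9 CPM, -0.99 (-2.26 to 0.08), and at -0.02 with the gate at 2 counts. The related Hnrnph1 and Hnrnpf had ratios of 0.10 and 0.11. Snrpa1 stood at 25.7 CPM (8 counts in 6 cells) against 57.4 CPM (71 counts in 40 cells), -1.16 (-2.43 to -0.10). Hnrnpul1 stood at 99.5 against 157 CPM, -0.66 (-1.25 to -0.10). Srsf10 had -0.58, just inside the 1.5-fold line, and Snrpb -0.39.

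Epithelial markers stood at 12.8 against 2042 CPM in this gate, and stromal markers at 196 against 518 CPM. Epithelial markers were detected in 2.02% and 4.81% of cells, and stromal markers in 16.2% and 10.4%. Cycling genes stood higher in the naive-gene+ cells at 1479 against 1172 CPM, and myeloid markers at 407 against 305 CPM. Immediate early genes had 10 of 16 below 0. The part of these in the members' ratios was not tested. Of the SR partners and kinases, 4 of 24 (16.7%) were higher and 0 lower, with a median of 0.00. Over all genes, 7.94% were higher and 17.2% lower. Luc7l, related to a U1 protein, stood at 132 against 66.3 CPM, 0.99 (0.41 to 1.55), and Srrm1, a coactivator rich in SR repeats, at 228 against 124 CPM, 0.88 (0.45 to 1.30). Of 42 other spliceosome genes, 2 (4.76%) were higher and 9 (21.4%) lower, not far from those shares. Prpf39 stood at 96.3 against 25.9 CPM, 1.90 (1.13 to 2.66), and U2surp at 38.5 against 80.8 CPM, -1.07 (-2.07 to -0.20). Of 30 RNA-binding regulators, 0 were higher and 1 was lower, Cirbp at -0.72 (-1.53 to -0.00).

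**Figure D4:**
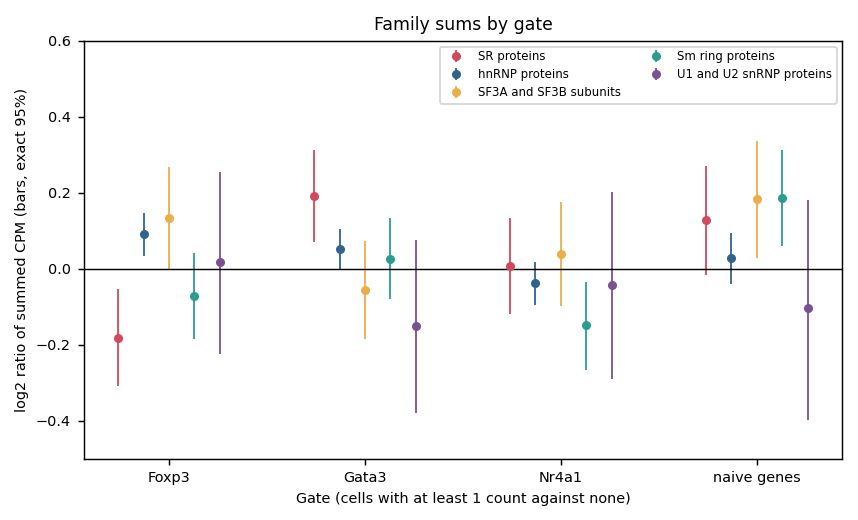
Log2 ratio of the summed CPM of each family, positive over negative cells, in the 4 gates, with 95% conditional intervals. SR genes lie at -0.18 in the Foxp3 gate and 0.19 in the Gata3 gate, and Sm genes at -0.15 in the Nr4a1 gate and 0.19 in the naive-gene gate.

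The 10 genes of highest counts stayed inside 1.5-fold in all 4 gates, except that Hnrnpab in the naive-gene gate reached -0.65 with the gate at 2 counts. Hnrnpf had ratios of 0.08, 0.09, -0.16 and 0.11 in the Foxp3, Gata3, Nr4a1 and naive-gene gates, and in the same order Hnrnpa2b1 had 0.17, -0.08, 0.09 and -0.05. Hnrnpa3 was below 0 in all 4, at -0.15, -0.07, -0.20 and -0.02. Hnrnpk had 0.07, 0.25, -0.02 and 0.11, and Hnrnpc 0.23, 0.30, 0.05 and -0.04. Snrpf had -0.03, 0.12, -0.19 and 0.27. Hnrnpa0 had -0.01, 0.29, 0.22 and 0.18. Hnrnpm lay between -0.00 and 0.11, Hnrnpu between -0.14 and 0.18, and Hnrnpab between -0.14 and 0.08. Over these 10 genes in 4 gates, intervals left 0 out in 8 cases. The intervals are too narrow because counts clump by cell. How often intervals left 0 out over all genes was not counted, so the number is no finding about the members. They were Hnrnpa2b1 (0.01 to 0.33) and Hnrnpc (0.04 to 0.43) in the Foxp3 gate, and Hnrnpk (0.06 to 0.44), Hnrnpc (0.11 to 0.50) and Hnrnpa0 (0.07 to 0.51) in the Gata3 gate. The others were Hnrnpa3 (-0.39 to -0.02) and Hnrnpf (-0.33 to -0.00) in the Nr4a1 gate and Snrpf (0.02 to 0.50) in the naive-gene gate. Hnrnpa0 in the Gata3 gate turned to -0.04 with counts capped at 1.

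Crossing the gates showed which differences were present on both sides of another gate. The lower SR sum of Foxp3+ cells was seen among Gata3- cells, at 1199 CPM (1046 to 1368) in 131 Foxp3+ and 1497 CPM (1389 to 1610) in 347 Foxp3- cells. Among Gata3+ cells it was 1516 CPM (1386 to 1654) in 201 Foxp3+ and 1675 CPM (1568 to 1786) in 371 Foxp3- cells, where the intervals overlapped. The direction of Foxp3 and of Gata3 was thus the same on both sides of the other gate. The hnRNP sum stood at 7543 and 7896 CPM in Foxp3+ cells with and without Gata3, and at 7427 and 6953 CPM in Foxp3- cells. By Foxp3 and Nr4a1 the SR sum was 1374 and 1422 CPM in Foxp3+ cells and 1653 and 1569 CPM in Foxp3- cells, Nr4a1+ first. The Sm sum was lower in Nr4a1+ cells on both sides, at 1742 against 1881 CPM with Foxp3 and 1765 against 1973 CPM without.

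**Figure D5:**
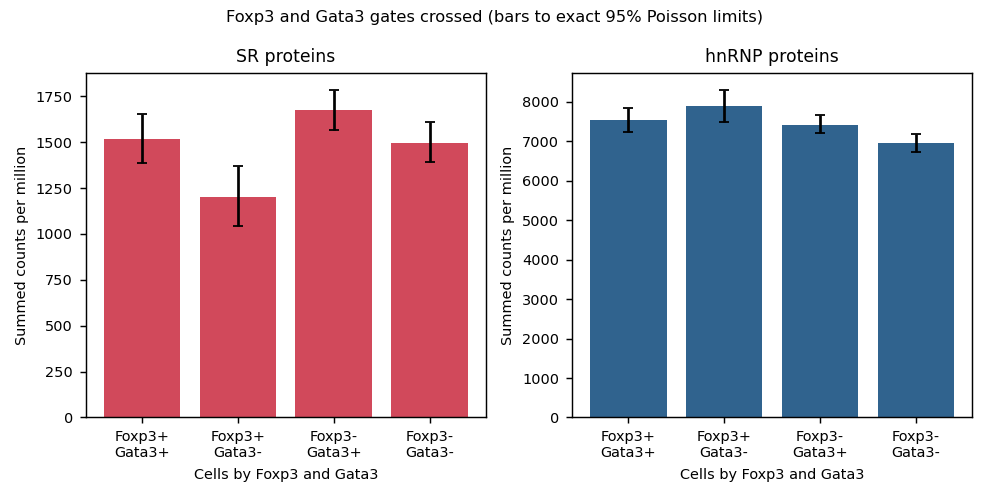
Summed CPM (bars from 0) of the SR genes and of the hnRNP genes in cells crossed by Foxp3 and Gata3, with exact 95% Poisson intervals as error bars. The SR sum is lowest, 1199 CPM, in Foxp3+ Gata3- cells, where the hnRNP sum is highest, 7896 CPM.

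Single genes crossed in the same way rest on few counts. Srsf6 was lowest in Foxp3+ Gata3- cells at 87.2 CPM (49.8 to 142) and highest in Foxp3- Gata3+ cells at 225 CPM (187 to 269), with 157 CPM in both other classes. Sf3a2 stood at 60.4 (36.9 to 93.3) and 59.9 (29.9 to 107) CPM in Foxp3+ cells with and without Gata3. In Foxp3- cells it stood at 107 (81.6 to 138) and 112 (83.9 to 146) CPM. It was lower with Foxp3 on both sides of the Gata3 gate, with intervals that overlapped. Hnrnph2 stood at 160 and 153 CPM in Foxp3+ cells and 94.4 and 107 CPM in Foxp3- cells. Hnrnpll, in contrast, stood at 45.3 CPM (25.4 to 74.7) in Foxp3+ Gata3+ and 131 CPM (83.8 to 195) in Foxp3+ Gata3- cells, but at 74.5 and 74.4 CPM in the Foxp3- classes. By Nr4a1 it stood at 33.4 CPM (13.4 to 68.8) in Foxp3+ Nr4a1+ and 105 CPM (71.7 to 148) in Foxp3+ Nr4a1- cells, but at 64.7 and 78.0 CPM in the Foxp3- classes. Whether these gaps differ between Foxp3+ and Foxp3- cells was not tested. Hnrnph3 was low in Nr4a1+ cells on both sides, with 2 counts or 9.55 CPM (1.16 to 34.5) in Foxp3+ and 6 counts or 21.6 CPM (7.91 to 46.9) in Foxp3- cells, against 62.3 and 58.2 CPM in the matching Nr4a1- cells. Srsf2 was highest in Foxp3- Nr4a1+ cells at 413 CPM (341 to 496), against 286 CPM in Foxp3- Nr4a1- cells.

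The naive-gene gate overlaps the Foxp3- side, so it was also read within Foxp3- cells. There the 52 genes summed to 13315 CPM (12867 to 13775) in 162 naive-gene+ and 12087 CPM (11845 to 12333) in 556 other cells. Every large family was higher, each with intervals that overlapped. SR genes had 1741 (1581 to 1912) against 1544 (1458 to 1633) CPM. Sm genes had 2124 (1947 to 2312) against 1851 (1757 to 1949) CPM. SF3A and SF3B had 1393 (1251 to 1548) against 1209 (1134 to 1289) CPM. The hnRNPs had 7602 (7264 to 7951) against 7079 (6894 to 7268) CPM. These crossed values were not recomputed with other processing. Sf3a2 stood at 148 CPM (104 to 204) against 97.0 CPM (76.4 to 121), and Hnrnph2 at 59.9 CPM (33.5 to 98.8) against 114 CPM (91.2 to 140). Both gaps of these genes were thus present without the Foxp3+ cells, with intervals that overlapped.

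Some members share sequence or position with other genes, which limits what a count of them means. In GENCODE vM21, 6 of the 52 overlap an exon of another gene on the same strand, namely Hnrnpa3, Hnrnpm, Hnrnpul2, Sf3b3, Snrpa1 and Snrpn, and 19 overlap one on the other strand. Hnrnph2 lies on chromosome X and is close in sequence to Hnrnph1 and Hnrnpf, and Hnrnpa1, Hnrnpa3 and Snrpg have processed pseudogenes. How the authors assigned reads shared by such copies is not given in the sources used here, so these levels are uncertain to that extent.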

How the data were processed

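Counts per barcode and gene in 1 table were deposited by the authors. TopHat2, SAMtools and the mm10 build are named per the submitters' processing notes. How reads were counted, whether molecular identifiers were collapsed, which annotation served and whether barcodes were filtered before deposit is not given in the sources used here. Cells were sorted and captured as described, per the labels' protocols.

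A barcode was kept (1050 of 1985) if it held 500 or more counts on 200 or more genes, with mitochondrial genes taking under 20%. Counts were summed on each side of a gate and scaled to CPM, and log2 ratios were given exact conditional 95% intervals for genes with at least 50 counts. Where 1 side held 0 counts, a floor of 3 stood in for it. Levels have exact Poisson and shares exact binomial (Clopper-Pearson) intervals, and all cover counting error only. Thinning drew 500 counts per cell (seed 7). Doublets were called by Scrublet (scanpy 1.11.5) and left out only as an alternative. Python 3.11.15, numpy 2.4.6, pandas 2.3.3 and scipy 1.17.1 were used, and the scripts were tested on simulated data. No difference was tested, because the barcodes name no sample.

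The members, gene lists and gates were chosen with earlier results of these data known. In each gate the 6 highest and 6 lowest ratios among members with at least 50 counts were named, along with the 10 members of highest counts and up to 3 genes at each end of a pathway list. Every member could be named for its level. Promoter windows came from RefSeq (GRCm38.p6) and positions from GENCODE vM21, both of the mm10 build. The alternatives capped counts at 1 per cell and gene, thinned cells, left ribosomal and mitochondrial genes out of the total, weighted cells equally, left out doublets or cells with epithelial or stromal genes, put the gate at 2 counts, or tightened the filters to 1000 counts or 10% mitochondrial counts. For the members' median and numbers past 1.5-fold, the minimum per gene was also lowered to 10 counts or dropped.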

Additional observations from a re-analysis of the deposited data

Results flagged for a closer look

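The 935 barcodes left out by the filter were not used in any comparison. They held 141827 counts, a median of 88 per barcode, and 740 of these fell on the splicing factor and hnRNP genes. That is 5218 CPM (95% Poisson interval 4848 to 5607), against 12487 CPM (12312 to 12664) in the cells kept. The signal was lower per count than in the kept cells.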

How the results depend on the processing

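No paired analysis was possible because the barcodes name no sample, and for the same reason no replicate could be left out in turn. The members' medians and numbers past 1.5-fold, the total and family sums and the ratios of the named members were recomputed in 9 other ways. The medians and the numbers past 1.5-fold were recomputed in 2 more, with lower minimums of counts per gene. Levels, clumping, crossed gates, promoter matches and the genes of the pathway and marker lists were not recomputed in these ways. In the Foxp3 gate the members' median, 0.03, was -0.022 with counts capped at 1 and -0.029 without ribosomal and mitochondrial genes in the total. The ratio of their sum, 0.04, was -0.029 capped, -0.023 without those genes and -0.024 with the gate at 2 counts. The number higher by at least 1.5-fold, 2, was 1 capped, 4 thinned, 1 with equal weights and 1 with the gate at 2 counts, and the number lower, 3, was 6 thinned, 5 without ribosomal and mitochondrial genes, 6 with equal weights, 5 without cells holding epithelial or stromal genes and 5 at under 10% mitochondrial counts. In the Gata3 gate the sum, 0.05, was -0.010 capped, -0.0064 thinned and -0.023 with equal weights. The number higher, 0, was 1 capped, 5 thinned, 1 with the gate at 2 counts and 3 at 1000 counts, and the number lower, 1, was 6 thinned, 2 without ribosomal and mitochondrial genes, 2 without cells holding epithelial or stromal genes, 4 with the gate at 2 counts, 3 at 1000 counts and 2 at under 10% mitochondrial counts. In the Nr4a1 gate the number higher, 0, was 4 thinned and 1 with the gate at 2 counts, and the number lower, 5, was 1 capped and 8 thinned. In the naive-gene gate the median, 0.07, was -0.057 thinned, 0.145 without ribosomal and mitochondrial genes and -0.011 with the gate at 2 counts, and the sum, 0.08, was -0.021, 0.152 and -0.0034. The number lower, 4, was 2 capped, 7 thinned and 8 with the gate at 2 counts. The cause of these changes was not tested. The SR ratio kept its sign in all 9 alternatives in the Foxp3 gate (-0.28 to -0.06) and the Gata3 gate (0.10 to 0.28), as did the hnRNP ratio in the Foxp3 gate (0.03 to 0.12) and the Sm ratio in the Nr4a1 gate (-0.18 to -0.14) and the naive-gene gate (0.09 to 0.26). Other family ratios turned sign in at least 1 alternative. These were hnRNP in the Gata3 and naive-gene gates, Sm in the Gata3 gate and SR in the Nr4a1 gate. SF3A and SF3B did so in the Nr4a1 and naive-gene gates, and U1 and U2 in the Foxp3, Nr4a1 and naive-gene gates. Over families, 169 values stayed within the interval of the reported ratio and 11 moved outside it. Over single members, 763 values stayed within the interval of the reported ratio and 28 moved outside it. Of the members named past 1.5-fold, Snrpd1 in the naive-gene gate turned sign, to -0.027 thinned. Hnrnph3 in the Nr4a1 gate ranged from -3.11 to -1.18, Hnrnph2 in the naive-gene gate from -1.30 to -0.81, Sf3a2 in the naive-gene gate from 0.17 to 0.78 and Snrpa1 in the Foxp3 gate from 0.21 to 1.74.

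All values rest on 1 pooled sample, and the intervals are too narrow because counts clump by cell. A gate by 1 count misses cells, so that both sides are mixed, and the 4 gates share cells.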
